A study of Ovis aries with 12 samples.

Results

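The haemoglobin genes and their chaperone were followed in a hind-limb muscle, the biceps femoris, taken from fetal sheep close to birth. They were taken as every array probe named HBB or AHSP, or named for any other alpha-, beta-, epsilon-, gamma- or zeta-globin gene, whatever its values. The rule found 4 of the 15008 probes on the array, 2 for HBB and 2 for AHSP, so that 2 genes were covered. No probe carried the name of another globin gene. A single further probe is described on the array as the fetal beta subunit of haemoglobin but has no gene name. It lies outside the rule, was added by its description after its values had been seen, and is called the fetal beta-subunit probe here.

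There were 12 arrays, 1 per fetus, 6 from ewes given cortisol and 6 from control ewes. Cortisol ewes received 1 mg/kg/day of cortisol (Solu-Cortef) by continuous infusion from about day 115 of pregnancy to necropsy, and control ewes received vehicle over the same period. Every ewe carried 1 fetus, and necropsy was at 139 to 144 days, soon after labour had begun. The labels count 7 ewes per arm, of which 6 per arm are analysed here. They give no breed and no fetal sex. The hormone was given to the ewe and not to the fetus, and no fetal cortisol level is known from the labels. The treatment text of the labels speaks of heart tissue and of a group size other than 6, whereas the titles and tissue fields give biceps femoris. The muscle regulator MYOD1 and the fast-muscle myosin light chain MYL11 were well above background on all 12 arrays. MYF5, the other measured gene of the skeletal muscle list, was so on 3 cortisol and 5 control arrays. No gene of the cardiac list was on the array by name, so these markers could not show heart tissue.

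Haemoglobin is a tetramer of alpha-type and beta-type globin chains that carries oxygen in red cells. In sheep the beta-type chain changes during development, from embryonic to fetal to adult forms that are encoded in a single gene cluster, and the change from the fetal to the adult chain takes place around birth. AHSP, the alpha-haemoglobin stabilising protein, binds free alpha chains and keeps them from precipitating before they join beta chains, as known from human and mouse. Globin and AHSP mRNAs are known from red cell precursors and reticulocytes. Which cells gave their signal in these muscles was not tested. In a bulk sample, fewer cells of a type and less RNA per cell cannot be told apart.

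The probe sequences are shown because they set which transcripts each signal can hold. In the AHSP probes the capitals mark the run that both share, and HBB probe 1 has no shared run of note and is in lower case throughout. All are written 5′ to 3′ as the array files give them.
AHSP probe 1: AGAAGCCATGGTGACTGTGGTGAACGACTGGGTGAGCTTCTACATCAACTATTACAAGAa
AHSP probe 2: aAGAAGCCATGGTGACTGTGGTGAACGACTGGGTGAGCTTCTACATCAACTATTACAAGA
HBB probe 1: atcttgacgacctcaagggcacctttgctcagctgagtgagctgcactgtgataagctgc

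The AHSP probes (A_70_P054886 and A_70_P054887) share 59 of their 60 bases and are shifted against each other by a single base. They are therefore repeated readings of the same stretch and not independent evidence. HBB probe 1 (A_70_P051261) is tied by the array's own annotation to the RefSeq transcripts of both HBB, the adult beta chain, and HBBC, the beta-C chain gene of the same cluster, and its signal cannot be divided between them. HBB probe 2 (A_70_P061046) was designed on an expressed sequence tag that the array names HBB. The longest run shared by the HBB probes was 7 bases, and the longest run shared by either of them and the fetal beta-subunit probe (A_70_P022102) was 6 bases. GC content was 53.3% for HBB probe 1, 36.7% for HBB probe 2 and 45.0% for the other probes. No genome build is named for the array, and no coordinates are given.

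Signals are log2 values relative to the 75th percentile of each array's own signals, so that 1 unit is a doubling. They compare arrays for the same probe, and levels of different probes are not set against each other. The comparison asks whether these genes differ in fetal muscle after raised maternal cortisol. HBB probe 1 stands for HBB and AHSP probe 1 for AHSP, as the probes with the higher mean signal.

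HBB varied widely between fetuses, and its mean after cortisol differed from that of controls by less than this spread. The lowest, median and highest signals of HBB probe 1 were 1.1, 5.22 and 5.63 on cortisol arrays, against 2.50, 3.46 and 5.15 on control arrays. Cortisol arrays 2, 4 and 5 lay above every control, cortisol array 1 lay below every control, and the groups overlapped. The highest array stood 23.2-fold above the lowest. The pooled within-group SD of 1.44 was larger than that of 99.0% of the 10730 tested probes, whose median was 0.36.

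HBB probe 1 averaged 4.35 ± 1.75 in the cortisol group and 3.67 ± 1.04 in the control group (SD, n = 6 each). The log2 fold change was 0.68 (95% interval -0.88 to 2.23), which is 1.60-fold with an interval of 0.544 to 4.68. In limma, the p was 0.366 and the p adjusted over all tested probes was 0.865, and an exact permutation test over arrays (two-sided) gave 0.429. No probe of HBB or AHSP passed an adjusted p of 0.05 in limma, nor did any on the array, since 0 of 10730 tested probes (0%) did. Without adjustment, 732 probes (6.82%) had p under 0.05, of which 230 (2.14%) were higher and 502 (4.68%) lower after cortisol, and none of the 4 HBB and AHSP probes was among them. All 4 had the higher mean after cortisol, as 46.0% of tested probes did. How precise these values are is limited by the 6 fetuses per group.

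HBB probe 2 gave the same order of group means with a larger gap. Its lowest, median and highest signals were 1.36, 4.66 and 5.37 on cortisol arrays, against 0.10, 2.79 and 4.73 on control arrays. Cortisol arrays 2, 4 and 5 were again above every control, and the lowest value of all was that of control array 4. The means were 4.12 ± 1.45 for cortisol and 2.83 ± 1.65 for control, and the log2 fold change was 1.29 (95% interval -0.38 to 2.96). That is 2.45-fold, with an adjusted p in limma of 0.773 and an exact permutation p of 0.177.

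AHSP, the chaperone of the alpha chain, had dim signals, and the low end of its spread came from arrays not well above background. AHSP probe 1 had a lowest, median and highest signal of -7.31, -3.64 and -2.46 on cortisol arrays, against -6.78, -4.09 and -3.10 on control arrays. It was well above background on 5 of 6 cortisol arrays and 4 of 6 control arrays, the others being cortisol array 1 and control arrays 2 and 3. Those 3 arrays also had the lowest AHSP values, and the groups overlapped along most of their range.

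AHSP probe 1 averaged -4.10 ± 1.72 after cortisol and -4.60 ± 1.43 in controls, a log2 fold change of 0.50 (95% interval -1.20 to 2.20). The adjusted p in limma was 0.913, and the exact permutation p was 0.597. AHSP probe 2 gave 0.44 (95% interval -1.29 to 2.17), with an adjusted p in limma of 0.934. Probe 1 had an SD larger than that of 99.2% of tested probes, with the values of the arrays not well above background taken as measured. With normexp background correction the log2 fold change was 0.04 for AHSP probe 1 and 0.03 for AHSP probe 2, and with array weights it was 0.84 for AHSP probe 2.

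The fetal beta-subunit probe had the widest spread of the 5 probes. Its lowest, median and highest signals were -7.65, -2.41 and 0.65 on cortisol arrays, against -4.95, -2.14 and 0.11 on control arrays. Cortisol arrays 3 and 5 were above every control, cortisol array 1 was below every control, and cortisol arrays 1 and 6 were not well above background. Its pooled within-group SD of 2.75 exceeded that of 99.9% of tested probes, with the values of those dim arrays taken as measured. The means were -2.74 ± 3.40 for cortisol and -1.99 ± 1.91 for control, a log2 fold change of -0.75 (95% interval -3.69 to 2.19, adjusted p in limma 0.933, exact permutation p 0.669). The fold change had the other sign, 0.23, without cortisol array 1. It was -0.03 with normexp background correction, -0.16 with the deposited values, -0.42 with dim signals raised to a floor and -0.46 with array weights.

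**Figure D1:**
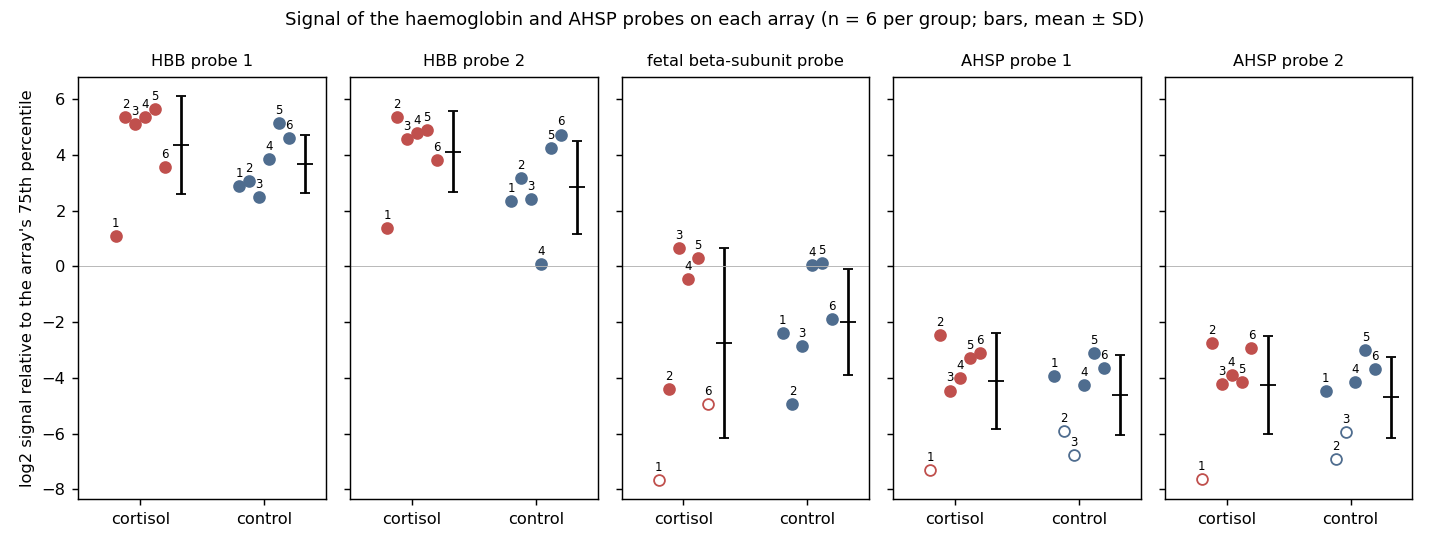
Log2 signal of each probe relative to the array's 75th percentile (vertical axis) on the 6 cortisol and 6 control arrays, numbered by replicate. Open circles are spots not well above background, and black bars are the mean ± SD. The groups overlap for every probe, with cortisol array 1 low for all 5.

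Cortisol array 1 was the array with the lowest HBB probe 1, AHSP and fetal beta-subunit signals, and it moved the fold changes more than most. Without it the log2 fold change of HBB probe 1 was 1.33, that of HBB probe 2 was 1.84 and that of AHSP probe 1 was 1.14. Control array 4 set the low end for HBB probe 2, whose log2 fold change was 0.74 without it. AHSP probe 1 gave 0.06 without control array 3. With cortisol array 1 and control array 4 both left out, the values were 1.36 for HBB probe 1, 1.30 for HBB probe 2 and 1.21 for AHSP probe 1, and none passed the adjusted threshold in limma.

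**Figure D2:**
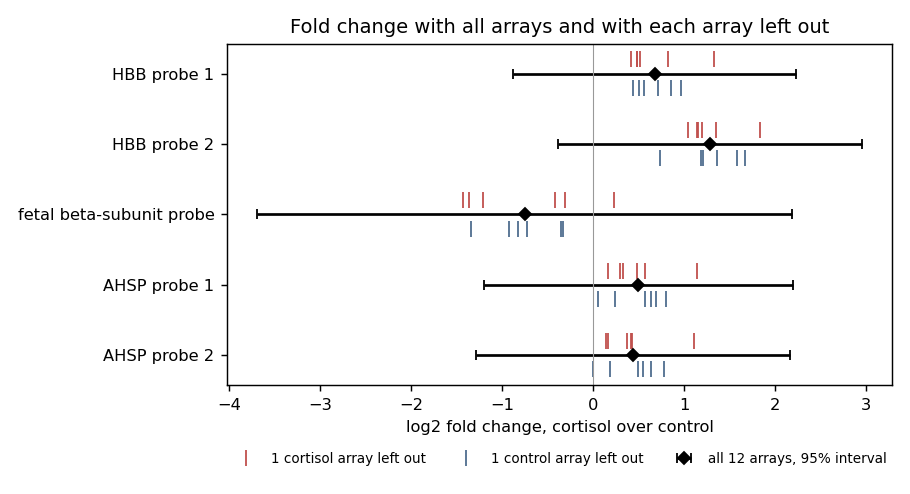
Log2 fold change of cortisol over control (horizontal axis) for each probe, with the 95% interval over all 12 arrays (black) and the value after leaving out each cortisol or control array (ticks). All 5 intervals include 0, and the tick farthest to the right in each row is the one without cortisol array 1.

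The arrays lay on 2 slides and form 3 sets by slide and row, every set holding 2 cortisol and 2 control arrays. The cortisol minus control difference of HBB probe 1 was 0.25, 2.05 and -0.28 in sets 1, 2 and 3, so the larger HBB mean after cortisol came mostly from the second set. HBB probe 2 gave 0.62, 3.41 and -0.15, in the same order. AHSP probe 1 gave 0.03, 1.29 and 0.18, and AHSP probe 2 gave 0.51, 0.99 and -0.18. For the fetal beta-subunit probe the differences were -2.35, 1.51 and -1.42. Within no set did any of these probes pass the adjusted test in limma.

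HBB and AHSP were high and low on many of the same arrays. Across the 12 arrays, HBB probe 1 and AHSP probe 1 had a Pearson r of 0.80 (permutation p 0.00336, adjusted p 0.0269 over a family of 16 planned and added relations). Spearman's rho was 0.64 (permutation p 0.027, adjusted p 0.0702). Cortisol array 1 and control array 3, the arrays farthest from the HBB median, were the lowest for both genes. Without them r was 0.51 (permutation p 0.15), so the size of r depended on those arrays. Fewer arrays with a narrower range remained, so this p cannot show whether the relation was absent among them. Both signals are relative to the same percentile of each array, which can add to a positive r, and the size of that part was not tested. A set of 4 arrays is too small to give the relation within sets.

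Within the cortisol group r was 0.81 (exact permutation p 0.183), and within the control group it was 0.80 (exact permutation p 0.0361). By rank the groups were less alike, with a rho of 0.37 within cortisol and 0.83 within control. Cortisol array 1 was the lowest cortisol array for both genes. With HBB probe 2 in place of probe 1, r was 0.59 (permutation p 0.0575, adjusted p 0.0946) and rho was 0.62 (permutation p 0.0351, adjusted p 0.0702). The cortisol change of HBB was not shown to differ from that of AHSP. Per array, HBB probe 1 minus AHSP probe 1 differed by 0.17 between the cortisol and control groups (exact permutation p 0.762).

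**Figure D3:**
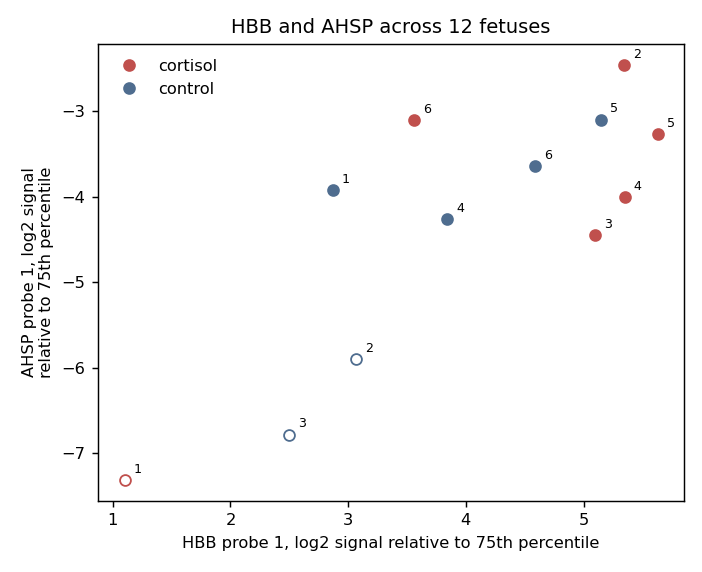
AHSP probe 1 (vertical axis) against HBB probe 1 (horizontal axis), both as log2 signal relative to the array's 75th percentile, for cortisol and control arrays numbered by replicate. Open circles are arrays on which AHSP was not well above background, and these 3 arrays (cortisol 1, control 2 and control 3) lie at the lower left.

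The HBB probes followed each other on most arrays but not on all. Pearson r was 0.75 (permutation p 0.00854, adjusted 0.0455) and rho 0.84 (permutation p 0.0012, adjusted 0.0128). Without cortisol array 1 and control array 3 it was 0.68. Within the cortisol group r was 0.98 (exact permutation p 0.0222), and within the control group it was 0.48 (exact permutation p 0.336). The difference HBB probe 2 minus HBB probe 1 ran from -0.75 to 0.27 on cortisol arrays and from -3.74 to 0.13 on control arrays. The low end of the controls was control array 4, where probe 2 was at 0.10 and probe 1 at 3.84, and the other controls lay between -0.89 and 0.13.

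This difference between the HBB probes was lower where the fetal beta-subunit probe was higher. Spearman's rho was -0.82 (permutation p 0.0016, adjusted p 0.0128) and Pearson r was -0.57 (permutation p 0.00218, adjusted p 0.0269), over 12 arrays. Without cortisol array 1 and control array 2, the arrays farthest from the fetal median, r was -0.54. Within the cortisol group r was -0.96 (exact permutation p 0.0167), and within the control group it was -0.67 (exact permutation p 0.0639).

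The relation was chosen after its values had been seen, and rho stayed between -0.86 and -0.76 when any array was left out. The difference contains HBB probe 1, which itself had an r of 0.72 with the fetal beta-subunit probe (permutation p 0.0119, adjusted p 0.0476), or 0.54 without cortisol array 1 and control array 3, and a rho of 0.66 (permutation p 0.0234, adjusted p 0.0702). AHSP probe 1 had an r of 0.46 with the fetal beta-subunit probe (permutation p 0.142, adjusted p 0.207) and a rho of 0.25 (permutation p 0.429).

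**Figure D4:**
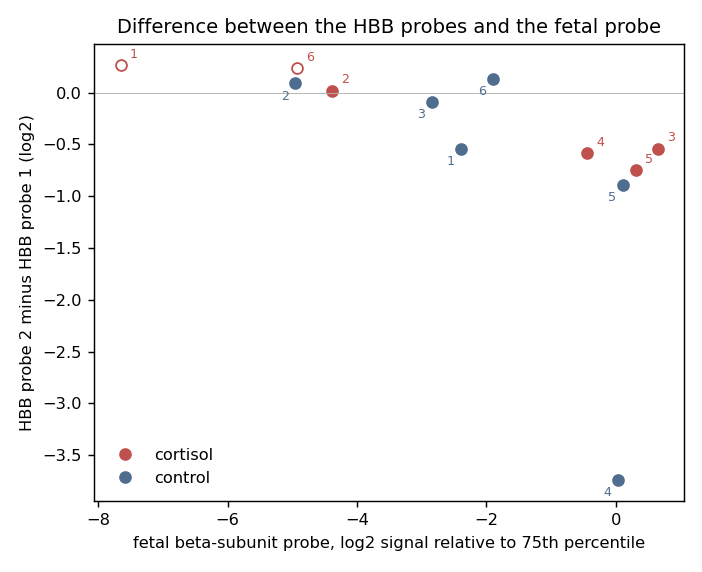
Difference between the HBB probes (HBB probe 2 minus HBB probe 1, log2, vertical axis) against the log2 signal of the fetal beta-subunit probe relative to the array's 75th percentile (horizontal axis), for cortisol and control arrays numbered by replicate. Open circles are arrays on which the fetal probe was not well above background. Control array 4, at -3.74, lies far below the other 11 arrays.

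The red cell programme around the globins was thinly covered by named probes, and none of its measured genes passed the test. Of 29 listed red cell membrane and reticulocyte genes 4 were on the array by name and 2 were measured, AHSP itself and the water channel AQP1. AQP1 had a log2 fold change of 0.18 (adjusted p in limma 0.938) and is also made by endothelium. The other genes of that list on the array, carbonic anhydrase 1 (CA1) and the pyruvate kinase PKLR, were not well above background on any array. Of 20 haem synthesis genes 2 were measured, UROD, an enzyme of the porphyrin pathway, at -0.20 and SLC25A38, a mitochondrial carrier needed for haem synthesis, at -0.13.

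Of 20 erythroid transcription and erythropoietin genes 3 were measured. EPOR, the erythropoietin receptor, averaged -2.30 ± 0.32 after cortisol and -2.23 ± 0.49 in controls, a log2 fold change of -0.07. KIT, a receptor of early blood cells, had -0.07, and its ligand gene KITLG had -0.23. EPO itself was not well above background on any array. The median log2 fold change was -0.16 for the haem list, -0.07 for the transcription and erythropoietin list and 0.34 for the red cell membrane list, against -0.02 over all tested probes.

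Iron genes were 1 higher and 2 lower of 3 measured from a list of 18, with a median log2 fold change of -0.05. FTH1, the ferritin heavy chain that stores iron, averaged 9.57 ± 0.26 after cortisol and 9.62 ± 0.23 in controls. Transferrin (TF), the plasma iron carrier, averaged -0.66 ± 0.40 after cortisol and 0.70 ± 2.34 in controls, whose values ran from -1.64 to 3.95. Lactoferrin (LTF), an iron-binding protein of neutrophil granules, had 0.76 (adjusted p in limma 0.856) and was well above background on 4 cortisol and 3 control arrays. Ceruloplasmin (CP), the plasma copper protein that oxidises iron, was above background nowhere. No gene of the haem breakdown list of 11 was on the array by name.

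Myoglobin (MB), the oxygen-binding globin of muscle fibres, had the opposite sign to HBB. It averaged 4.88 ± 1.29 after cortisol and 6.35 ± 0.37 in controls, and each cortisol array was below every control array. Its log2 fold change was -1.46 (95% interval -2.49 to -0.43). Over all tested probes the groups did not overlap for 44 (0.410%). The p for MB was 0.00883 unadjusted and 0.692 adjusted over all tested probes in limma. Cytoglobin (CYGB), a globin of fibroblasts, had -0.06.

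**Figure D5:**
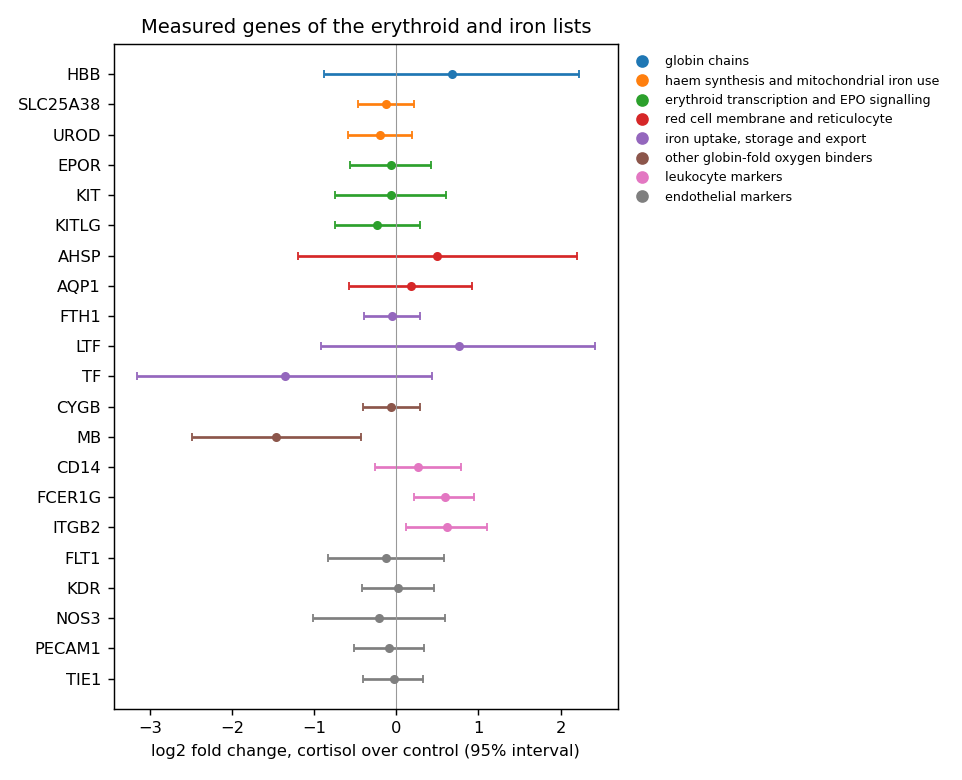
Log2 fold change of cortisol over control with its 95% interval (horizontal axis) for the measured genes of the globin, haem, erythroid, iron, other globin, leukocyte and endothelial lists. HBB and AHSP, like TF and LTF, have intervals far wider than those of UROD, EPOR or FTH1. MB, FCER1G and ITGB2 have intervals that exclude 0 without passing the adjusted test.

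Markers of other cells that blood or muscle could bring were compared with HBB. The 3 measured leukocyte markers of 10 listed had a mean level of -2.78 to -1.84 on cortisol arrays and -3.04 to -2.59 on control arrays, and ITGAM was above background nowhere. FCER1G, a signalling chain of myeloid cells, had 0.59 (unadjusted p 0.00425, adjusted p in limma 0.692), ITGB2, the leukocyte integrin beta chain, had 0.62 and CD14, a monocyte receptor, had 0.27. The Pearson r of HBB probe 1 with the leukocyte mean was -0.26 (permutation p 0.417, adjusted p 0.477), and rho was -0.01 (permutation p 0.99). Endothelial markers, 3 measured of 7, had a mean level of -0.51 to 0.27 on cortisol arrays and -0.35 to 0.08 on control arrays, and an r of 0.35 with HBB (permutation p 0.265, adjusted p 0.353; rho 0.29, permutation p 0.355). Within groups this r was 0.20 for cortisol (exact permutation p 0.847) and 0.91 for control (exact permutation p 0.0361), and the difference between the groups was not tested.

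Liver markers, 4 measured of 7, had a mean level of -4.52 to -1.66 on cortisol arrays and -4.71 to 2.38 on control arrays, and an r of -0.19 with HBB (permutation p 0.535, adjusted p 0.537; rho -0.12, permutation p 0.716). Skeletal muscle markers, 2 measured of 9, had a mean level of -2.71 to -1.0 on cortisol arrays and -1.27 to -0.79 on control arrays, and an r of 0.19 (permutation p 0.537, adjusted p 0.537; rho -0.09, permutation p 0.783). None of the 4 platelet markers was on the array by name.

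HBB and AHSP were also set beside measures of each array's own signal. The 75th percentile that each signal is relative to was between 187.3 and 446.8 intensity units, highest on cortisol array 1. HBB probe 1 had an r of -0.64 with it (permutation p 0.0231, adjusted p 0.0656) and a rho of -0.47 (permutation p 0.126). Without cortisol array 1 and control array 3 this r was -0.50. The percentile is subtracted from every scaled signal, so a negative r of HBB or AHSP with it is partly built in. This holds within groups as well, and the permutation p does not allow for it. Because all scaled signals share that term, a positive r between probes or genes can also hold a built-in part. The share of probes well above background was between 66.3% and 76.0% per array, and its r with HBB probe 1 was -0.62 (permutation p 0.0315, adjusted p 0.072; rho -0.62, permutation p 0.0346). For AHSP probe 1, r was -0.54 with the percentile (permutation p 0.0591, adjusted p 0.0946; rho -0.46, permutation p 0.132) and -0.57 with that share (permutation p 0.0498, adjusted p 0.0946; rho -0.70, permutation p 0.0125). With the local background, AHSP probe 1 had -0.57 (permutation p 0.0246, adjusted p 0.0656; rho -0.63, permutation p 0.0318) and HBB probe 1 had -0.29 (permutation p 0.357, adjusted p 0.439; rho -0.45, permutation p 0.143). No relation in this family with an array measure or a marker mean had an adjusted p under 0.05 over the 12 arrays. Within the cortisol group, HBB probe 1 had an r of -0.91 with the percentile (exact permutation p 0.0333) and AHSP probe 1 an r of -0.92 with the share well above background (exact permutation p 0.0167). Within the control group these were -0.72 (exact permutation p 0.133) and -0.40 (exact permutation p 0.425). The within-group p-values are not adjusted. Their part in the HBB and AHSP values was not tested. The raw processed intensity of HBB probe 1 was 954.7 units on cortisol array 1 and 12560 units on cortisol array 5, a smaller ratio than the 23.2-fold between the scaled signals of the same arrays.

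HBB and AHSP themselves, whose r with each other is given above, were left out of a ranking of 660 named genes by likeness. Those whose signals were most like HBB probe 1 over the 12 arrays were BHLHE40, ST3GAL4, FST, SC5 and CATHL1B. BHLHE40, a transcription repressor of the clock and stress pathways, had a Pearson r of 0.81 with HBB, or 0.80 with group means removed. ST3GAL4, a sialyltransferase, had 0.76, and FST, the activin-binding protein follistatin, had 0.75. SC5 (0.75) and CATHL1B (0.72) are cathelicidins, antimicrobial peptides of neutrophil granules. Cortisol array 1 was the lowest cortisol array for BHLHE40 and FST as well as for HBB.

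In the same ranking, the genes most like AHSP probe 1 were ESR1, IFT27, PLIN1, TIMP2 and MYL11. ESR1, the oestrogen receptor alpha, had an r of 0.80, IFT27, a transport protein of cilia, had 0.80, and PLIN1, the lipid droplet protein of fat cells, had 0.79, or 0.92 with group means removed. TIMP2, an inhibitor of matrix proteases, and MYL11 each had 0.77. Control array 3 was the lowest control for ESR1 as well as for AHSP probe 1, and AHSP was not well above background there. The likeness is a description over the same 12 arrays, with the top genes picked from 660, and no gene was in both lists of 5.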

How the data were processed

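RNA of 12 fetal muscles was labelled with Cy3 and hybridised to a 1-colour Agilent array, and, per the submitters' processing notes, Agilent Feature Extraction 10.1.1.1 read the scans. Each scanner file gives, per the file headers, the intensity of a spot (mean, median, local background and a processed signal) beside other values, such as 0 or 1 flags for well above background. The deposited series table holds log2 values that rank the probes of an array as the median minus background does (Spearman 1.0) and whose quartiles differ between arrays by at most 0.034. The sources used here do not name its normalization.

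Outlier-flagged spots were left out, spots of a probe were averaged, and log2 processed signal was taken relative to the 75th percentile of the non-control probes of that array. The test covered 10730 of 15008 probes, those well above background on 6 or more of 12 arrays, and was run with limma 3.58.1 in R 4.3.3, two-sided, without covariates, with Benjamini-Hochberg adjustment over all of them at 0.05. Single values used exact permutation over 924 splits, which cannot go below 0.00216. Correlations used 100000 resamples, or all orders within a group of 6. The other tools were scipy 1.17.1, pandas 2.3.3, matplotlib 3.10.9 and numpy 2.4.6 under Python 3.11.15. Tests were checked on simulated data.

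RefSeq's sheep table named 1335 probes by accession, Entrez number, symbol or synonym, 213 kept the array's own name, 14 matched several genes and 13446 had none. The genes and the 14 lists were chosen with earlier results of these data known. Genes named were all probes of HBB and AHSP, up to 4 members of each list by smallest unadjusted p (all members for red cell and iron lists), and the 5 genes most like each of HBB and AHSP, members left out. Further alternatives were normexp (offset 50), quantile and median scaling, the deposited values, other filters, slide, row set and replicate blocks, slides alone, another variance model, array weights and each array left out. Added after seeing the data were a floor on dim signals, leaving out cortisol array 1 with control array 4, HBB probe 2 in place of probe 1, and those of the fetal relation.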

Additional observations from a re-analysis of the deposited data

Results flagged for a closer look

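The values below stood apart within a group of 6 by Dixon's 95% limit, which divides the distance to the closest neighbour by the range of the group. About 1 in 20 groups passes by chance, and 11 of the 96 groups checked did.

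Among the haemoglobin and AHSP probes, AHSP probe 2 was at -7.61 on cortisol array 1, below the other cortisol arrays at -4.21 to -2.76. The difference HBB probe 2 minus HBB probe 1 was -3.74 on control array 4, against -0.89 to 0.13 on the other controls. The same array had a median local background of 18.0 intensity units, against 21.0 to 22.5 for the other controls, and ITGB2 was at -2.65, against -3.58 to -3.24.

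Of the genes whose signals were most like HBB, BHLHE40 was at -4.10 on cortisol array 1, against -1.33 to 0.01 on the other cortisol arrays, and FST was at 0.70 there, against 1.66 to 2.15. Of those most like AHSP, ESR1 was at -0.29 on control array 3, against 1.27 to 2.04 on the other controls. HSD11B1 was at 2.00 on cortisol array 3, against 0.28 to 0.64. On control array 1, LTF was at -6.97, against -4.98 to -3.80, and CD14 was at -2.50, against -3.65 to -3.33. CP, which was above background nowhere, was at -7.40 on control array 2, against -6.62 to -6.39.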

How the results depend on the processing

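No alternative put a probe of HBB or AHSP, or the fetal beta-subunit probe, past an adjusted p of 0.05 in limma, and the smallest adjusted p was 0.641 (HBB probe 2, slide and row set as a block). The count of probes past that threshold was 0, except 1 with slide 1 alone and 732 at an unadjusted p under 0.05. It was 0 with each array left out, when 493 to 1081 probes had an unadjusted p under 0.05, against 732 with all arrays. In set 3 alone the log2 fold change turned to -0.28 for HBB probe 1, -0.15 for HBB probe 2 and -0.18 for AHSP probe 2. The fetal probe turned to 0.05 with slide 2 alone, 1.51 in set 2 and 0.63 without cortisol array 1 and control array 4. With each array left out, values ran from 0.42 to 1.33 for HBB probe 1, 0.74 to 1.84 for HBB probe 2, 0.06 to 1.14 for AHSP probe 1, -0.003 (without control array 2) to 1.11 for AHSP probe 2 and -1.43 to 0.23 for the fetal probe. The HBB change minus the AHSP change ran from -0.12 to 0.53 and was -0.12, -0.05 and -0.01 without control array 1, cortisol array 3 and cortisol array 4. It was -0.46 in set 3 alone, 0.66 with normexp and 0.79 with HBB probe 2. The r of HBB and AHSP was 0.51 without the farthest arrays and 0.59 with HBB probe 2 in place of probe 1. The cause of these shifts was not tested. A filter on all 12 arrays leaves no value for AHSP or the fetal probe. AHSP probe 1 was not well above background on 3 arrays and was dim on the others, at 12.09 to 53.49 processed intensity units.

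Replicate numbers were not taken as pairs. Same-numbered arrays deviated together with r of -0.114 to 0.247, and for replicates 1, 4 and 6 the same-numbered control was the best match. Same-numbered arrays also shared a slide and row set, so these values cannot show whether the samples were paired. With the replicate block, 0 probes passed and 843 had an unadjusted p under 0.05. HBB probe 1 stayed at 0.68 (adjusted p 0.756), and the HBB minus AHSP change at 0.17 (exact sign-flip p 0.719).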

Other observations

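The hypoxia and angiogenesis list, 7 genes measured of 14, had 2 higher and 5 lower means after cortisol, a median log2 fold change of -0.10, and 0 past the adjusted test in limma (0 at an unadjusted p under 0.05). VEGFA, the main angiogenic growth factor, averaged 2.23 ± 0.93 after cortisol and 2.56 ± 0.20 in controls, and ANGPT1, a ligand that stabilises vessels, had a log2 fold change of -0.33 (adjusted p in limma 0.803). The glucocorticoid receptor and response list, 5 measured of 19, had 4 higher and 1 lower, a median of 0.17 and 0 past the adjusted test (1 at an unadjusted p under 0.05). That gene was CEBPB, a transcription factor of the acute phase, at -1.06 ± 0.87 after cortisol and -1.95 ± 0.67 in controls (adjusted p in limma 0.72). HSD11B1, whose enzyme regenerates active cortisol, had 0.47, NFKBIA, an inhibitor of NF-kappa-B, had 0.17, and the receptor gene NR3C1 had 0.10.

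Of the wider cell-type lists, leukocyte genes were 3 higher of 3 measured from 22 (median 0.59) and endothelial genes 1 higher and 4 lower of 5 measured from 15 (median -0.09). Liver-type plasma protein genes were 5 lower of 5 measured from 15, with a median of -2.04. ALB, serum albumin, had -2.72 (95% interval -5.49 to 0.04), and AHSG, fetuin-A, averaged -2.78 ± 2.57 after cortisol and 0.84 ± 4.78 in controls. Skeletal muscle genes were 1 higher and 2 lower of 3 measured from 17 (median -0.52), with MYOD1 at -0.52 and MYF5, an early myogenic factor, at -0.60. None passed the adjusted test in limma. The platelet list of 7 had no measured gene.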
